A study of Homo sapiens with 3 samples.

Results

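Primary microcephaly genes of the centrosome and spindle were examined for occupancy by the chromatin proteins CHD8 and TRRAP in neural stem cells of human origin. The group holds 10 of 20033 protein-coding genes (ASPM, WDR62, CDK5RAP2, MCPH1, CENPJ, STIL, CEP152, CEP135, CEP63 and PCNT), chosen by name because inherited loss of each causes a small brain, whereas loss of CHD8 is associated with a large head. All peaks from 5 kb upstream of each gene to its end were collected. The cells were wild-type and were made from H9, a long-established line of human embryonic stem cells, and they were grown with EGF and FGF. Chromatin was fixed with 2 mM disuccinimidyl glutarate and then 1% formaldehyde. It was precipitated with antibodies to CHD8 or TRRAP or with control IgG, at 1 library each. The IgG control was not analysed here.

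CHD8 is an ATP-dependent chromatin remodeler, and TRRAP is the scaffold that brings histone acetyltransferase complexes to transcription factors such as MYC and E2F. Apart from MCPH1, the microcephaly genes encode proteins that duplicate the centriole, organise the pericentriolar material that nucleates microtubules, or hold spindle poles together. Neural progenitors divide many times before they make neurons, and faults in centrosome number or spindle assembly deplete them through cell death or early differentiation.

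All 10 genes had a CHD8 peak at the promoter, and 8 of them also had a TRRAP peak there. A promoter reached 1000 bp upstream and downstream from the start of the canonical transcript. The shares over all protein-coding genes were 55.9% for CHD8, 34.9% for TRRAP and 34% for both, and 60.7% of CHD8-occupied promoters carried TRRAP. ASPM and MCPH1 were the genes without TRRAP at the promoter. In 1.11 Mb of gene windows, 3 peaks lay away from promoters, 1 of CHD8 and 2 of TRRAP, and they did not overlap. The summit of the CHD8 one, at PCNT, was 486 bp from another annotated start of that gene. A CHD8 peak away from the promoter was in 1 of 10 windows, beside 32% of coding genes of like length, and a TRRAP peak in 2 of 10, beside 20%. Fold below is the authors' deposited ratio of signal over background at a peak, and it was compared within a list only. With 1 library per antibody no difference could be tested, and the read depth behind each fold is unknown.

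Most of the promoters were richer in CpG than the median coding promoter. Several carried repeated CCAAT boxes, E2F words or the CHR word, which are known from promoters of cell cycle genes. Exact words were searched on both strands from 250 bp before to 50 bp after the start. Sequences that show repeated words together are given here from the GRCh38 reference, on the strand of the gene, with each word in capitals. In ASPM the stretch chr1:197146695-197146819 on the minus strand, 150 to 26 bp upstream of the start, held 3 inverted CCAAT words (ATTGG) with the CHR word (here TTCAAA) between them. In PCNT the stretch chr21:46323876-46324123 on the plus strand lay between the starts of PCNT and its divergent neighbour C21orf58. It held 3 CCAAT words and the SP word.
ASPM: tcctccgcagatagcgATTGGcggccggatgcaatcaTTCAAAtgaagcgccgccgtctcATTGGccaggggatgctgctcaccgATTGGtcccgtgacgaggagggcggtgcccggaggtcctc
PCNT: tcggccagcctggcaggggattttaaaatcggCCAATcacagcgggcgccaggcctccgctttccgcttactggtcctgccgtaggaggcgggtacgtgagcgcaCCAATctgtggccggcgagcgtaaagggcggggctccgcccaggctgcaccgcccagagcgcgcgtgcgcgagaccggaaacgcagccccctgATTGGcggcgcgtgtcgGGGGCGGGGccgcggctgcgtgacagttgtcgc

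Shorter stretches are shown for genes whose words lay within annotated exons of some transcript. They come from WDR62 (chr19:36054835-36054864 and chr19:36054873-36054902, plus strand), STIL (chr1:47314263-47314292 and chr1:47314130-47314159, minus strand), CEP152 (chr15:48811285-48811314 and chr15:48811243-48811272, minus strand) and CEP63 (chr3:134486001-134486030 and chr3:134485894-134485923, plus strand). The capitals mark CCAAT or ATTGG in the lines named for a CCAAT pair. In the other lines they mark E2F words, the CHR word and the E-box (CACGTG).
WDR62 CCAAT pair: ATTGGctaggccgggcccgtcgcgtCCAAT
WDR62 start: gcgccggctTTCCCGCggctgttcgctgtt
STIL CCAAT pair: ggcgctgATTGGtcggcacaCCAATacgta
STIL start: gtTTGCCGCctcagTTCCCGCgaccccaac
CEP152 CCAAT pair: gtaATTGGctctcgaatccaCCAATgggcg
CEP152 E2F and CHR: TTCCCGCcacctctggcgcccgctTTCAAA
CEP63 E-box: cctcccccgcatCACGTGtctgcactcgct
CEP63 E2F: gcaacgaacgcaTTCCCGCgcctccaaaac

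E2F words (TTCCCGC, also with GG, CG or GC in place of the first CC) were present in 5 of the 10 promoters, those of ASPM, WDR62, STIL, CEP152 and CEP63. They occurred in 17.1% of all protein-coding promoters and in 22.9% of those with a CHD8 peak. In ASPM and WDR62 the word began 15 bp upstream of the start, and in STIL a pair of words began 10 bp upstream and 2 bp downstream of it. The CHR word (TTTGAA, also with C as the third letter), the element of genes that peak in G2 and mitosis, was present in 4 promoters (ASPM, CDK5RAP2, CEP152 and CEP135), beside 12.8% of all and 10.1% of CHD8-occupied promoters. It lay upstream of the start in ASPM and CEP152, and downstream of it in CDK5RAP2 and CEP135.

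The CCAAT word, to which NFY binds, was present in 5 promoters, beside 36.1% of all and 37.5% of CHD8-occupied promoters. It recurred within promoters: ASPM had 4 copies, a number reached by 1.24% of all promoters, WDR62, STIL and PCNT had 3 each, and CEP152 had 2. A count of at least 3 was singled out after these values were seen. It was met by 4 of the 10 promoters, by 3.88% of all promoters and by 5.42% of those with a CHD8 peak. The E-box, the site of MYC and MAX, was present in CEP63 only, beside 8.76% of all and 10.4% of CHD8-occupied promoters. The SP word (GGGGCGGGG) was present in WDR62, CENPJ and PCNT, beside 24.5% of all and 31.6% of CHD8-occupied promoters. The YY1 word (AAGATGGCG) was present in CDK5RAP2, beside 2.84% of all and 4.91% of CHD8-occupied promoters. The ETS word (CCGGAAG, 14.1% of all and 22% of CHD8-occupied promoters) and the NRF1 word (1.69% and 2.7%) were in 0 of the 10. No word was found in the MCPH1 window. Words with a mismatch were not counted, and short words also occur where no factor binds.

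**Figure D1:**
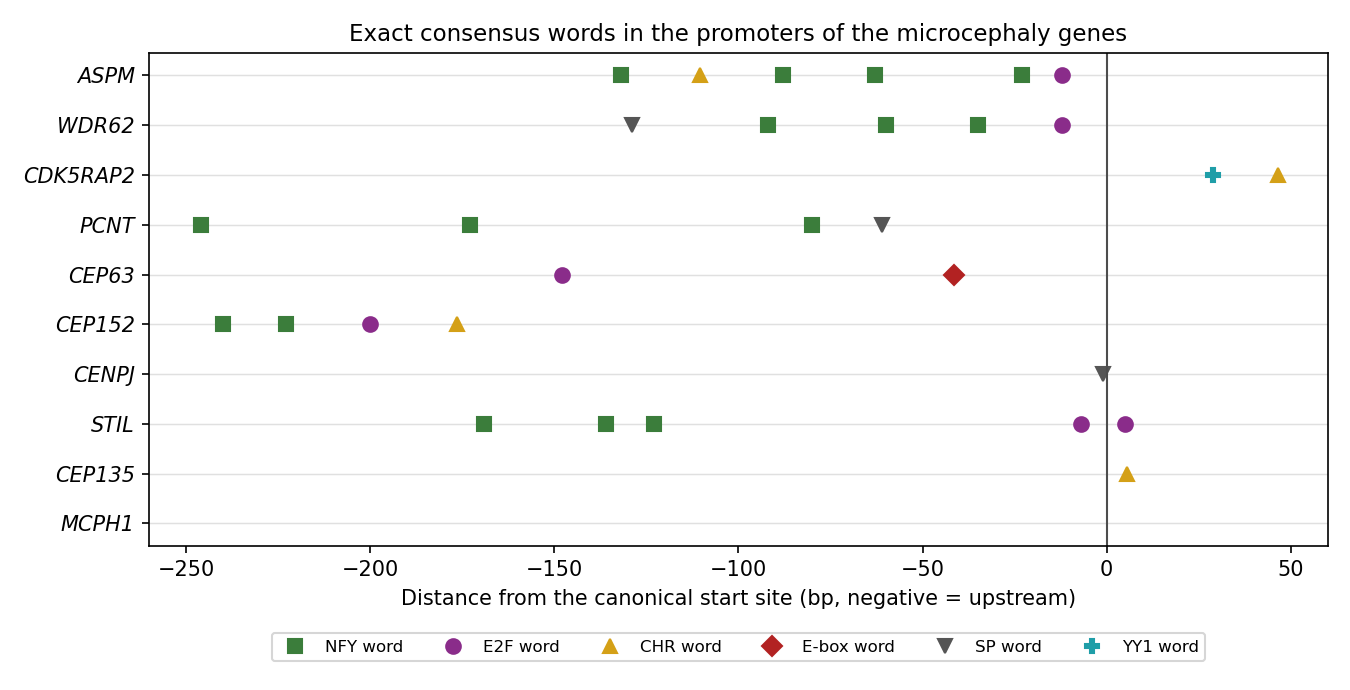
Positions of exact consensus words in the 10 promoters, in bp from the canonical start site, with 1 row per gene and 1 symbol per word. ASPM shows 4 NFY (CCAAT) words and an E2F word near the start, and MCPH1 shows none.

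Words were also searched around the summits, in windows shorter than those around the starts. Shares in parentheses are of all distinct peaks that were the strongest at some coding promoter, 9889 for CHD8 and 6191 for TRRAP. Within 100 bp of the strongest CHD8 summit, E2F words occurred at 2 of 10 genes (16.7%), CCAAT at 1 of 10 (18.5%), the CHR word at 1 of 10 (4.70%), the YY1 word at 1 of 10 (5.37%) and the SP word at 1 of 10 (18.2%). Within 100 bp of the strongest TRRAP summit, E2F words occurred at 3 of 8 genes (18.8%), the CHR word at 2 of 8 (4.44%), CCAAT at 2 of 8 (16.1%), the SP word at 1 of 8 (22.4%) and the E-box at 1 of 8 (8.96%). This E-box is not the one printed for CEP63, which lay more than 100 bp from both summits of that gene.

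The spindle pole genes came apart in TRRAP. ASPM, which encodes a protein that focuses microtubule minus ends at the spindle poles, is on the minus strand of chromosome 1 (197084121 to 197146694). The CHD8 fold there was 32.7 with a −log10 q of 91.0, in a peak from 197146077 to 197147040, and 96.1% of CHD8-occupied promoters had a lower fold. The peak was 964 bp wide, and its summit lay 155 bp downstream of the start in the 5′ UTR in exon 1. The nearest TRRAP peak on the chromosome was 537157 bp away. Of 442 genes with a CHD8 fold at least as high as that of ASPM, 80 (18.1%) also had no TRRAP promoter peak.

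WDR62, a spindle pole scaffold that works with ASPM, is on the plus strand of chromosome 19 (36054649 to 36105108), head to head with THAP8, whose start lies 612 bp upstream. Its CHD8 peak at 36053970 to 36055367 was the widest of the 10 genes at 1398 bp and covered both starts, with a fold of 18.1 and a −log10 q of 39.7. The highest TRRAP fold of the group, 16.8 (−log10 q 33.3), was in the peak at 36054231 to 36054591 and exceeded that of 90.8% of TRRAP-occupied promoters. Its summit lay 543 bp upstream of the canonical WDR62 start but 69 bp upstream of the THAP8 start. The CHD8 summit lay 247 bp upstream of the canonical start and 1 bp from the start of a longer WDR62 transcript. The TRRAP signal here was thus nearer to THAP8 than to WDR62.

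The genes of the pericentriolar material had the strongest and the third strongest CHD8 peaks. CDK5RAP2, which recruits and activates the γ-tubulin ring complex, is on the minus strand of chromosome 9 (120388875 to 120580170). CHD8 reached a fold of 48.2 and a −log10 q of 152.6 in a peak from 120579704 to 120580620, which ranked 144 of 23393 peaks, and 99.2% of occupied promoters had a lower fold. The summit was 125 bp upstream of the start. TRRAP was by contrast weak within its list. Its fold was 6.73 and its −log10 q was 6.39, in a peak from 120580330 to 120580454 that ranked 12492 of 14735, and 11.7% of TRRAP-occupied promoters had a lower fold. Of the 90 genes with a CHD8 fold at least as high, 84 (93.3%) had a TRRAP promoter peak of any strength. The sequence below runs from 300 to 100 bp upstream of the start (chr9:120580267-120580467, minus strand) and shows where this TRRAP peak lies, in capitals, within the CHD8 peak.
CDK5RAP2: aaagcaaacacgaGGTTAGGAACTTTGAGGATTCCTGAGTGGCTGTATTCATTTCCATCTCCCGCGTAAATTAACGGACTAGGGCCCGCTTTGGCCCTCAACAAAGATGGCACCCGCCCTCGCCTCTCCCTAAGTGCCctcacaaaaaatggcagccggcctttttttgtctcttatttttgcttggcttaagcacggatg

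PCNT encodes pericentrin, the large scaffold that anchors CDK5RAP2 and γ-tubulin at the centrosome. It is on the plus strand of chromosome 21 (46324124 to 46445769), and C21orf58 starts 286 bp upstream on the other strand. This was the gene with most peaks, 3 for CHD8 and 2 for TRRAP. The strongest CHD8 peak (46324048 to 46324964) reached a fold of 22.6 (−log10 q 53.7) and its summit in intron 1, 207 bp downstream of the start. A weaker one at 46323673 to 46323970 (fold 11.1) had its summit 46 bp inside C21orf58. The gap between these peaks was 77 bp, and the strongest TRRAP peak, at 46323715 to 46324141 (fold 16.3, −log10 q 31.8), spanned it. Its summit lay 38 bp inside C21orf58, and a separate TRRAP peak at 46324493 to 46324914 (fold 13.4) had its summit in intron 1, 523 bp downstream of the PCNT start. Both TRRAP peaks overlapped CHD8. The third CHD8 peak, at 46325290 to 46325482 (fold 7.54), was also in intron 1 and without TRRAP. Its summit lay 1218 bp downstream of the canonical start, outside the promoter window, but 486 bp downstream of another annotated PCNT start.

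The genes of centriole duplication ranged in CHD8 fold from 19.9 (CEP63), the fourth highest of the group, to 9.75 (STIL), the lowest, and in TRRAP fold from 12.5 (CENPJ) to 5.30 (CEP152). CEP63 and CEP152 encode partners that form the ring from which a new centriole grows. CEP63 is on chromosome 3 (134485699 to 134587789, plus strand), and the ANAPC13 start lies 72 bp upstream of its canonical start. A CHD8 peak of 1191 bp at 134485374 to 134486564 (fold 19.9, −log10 q 45.8) and a TRRAP peak of 709 bp at 134485614 to 134486322 (fold 12.0, −log10 q 18.7) each covered both starts. This was the widest TRRAP peak among the 10 genes. The CHD8 summit lay 254 bp upstream and the TRRAP summit 88 bp downstream of the canonical CEP63 start, the latter in the 5′ UTR in exon 1. The nearest annotated starts of any CEP63 transcript were 4 bp from the CHD8 and 28 bp from the TRRAP summit. The E-box shown above lay between these summits, 44 to 39 bp upstream of the start.

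CEP152 is on chromosome 15 (48712928 to 48811146, minus strand). CHD8 gave a fold of 12.0 and a −log10 q of 21.2 in a peak from 48810978 to 48811320, the same fold as the median of all occupied promoters. The TRRAP peak at 48811133 to 48811257 was the weakest of the group (fold 5.30, −log10 q 4.39, rank 14674 of 14735). CEP152 thus had a CHD8 peak of ordinary strength and a TRRAP peak near the end of its list, whereas its partner CEP63 exceeded 83.9% of CHD8-occupied and 76.5% of TRRAP-occupied promoters in fold.

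CENPJ, also called CPAP, sets centriole length and adds microtubules to the growing centriole. On chromosome 13 (24882279 to 24922889, minus strand) CHD8 gave a fold of 12.0 and a −log10 q of 21.2 in a peak from 24922482 to 24923291, the same values as CEP152. The TRRAP peak at 24922786 to 24923205 (fold 12.5, −log10 q 20.1) exceeded 78.8% of TRRAP-occupied promoters. CENPJ and CEP152 therefore shared a CHD8 fold and differed in TRRAP, by folds of 12.5 and 5.30 that were not tested. CENPJ was also the gene with the highest TRRAP fold among those without a head-to-head coding neighbour. The CHD8 summit lay 279 bp and the TRRAP summit 184 bp upstream of the start. The sequence of chr13:24923012-24923161 (minus strand), 300 to 151 bp upstream of the start, contains both summits, each marked with 5 bases on either side in capitals, the CHD8 summit first. The only exact word in the searched CENPJ window was the SP word across the start itself.
CENPJ: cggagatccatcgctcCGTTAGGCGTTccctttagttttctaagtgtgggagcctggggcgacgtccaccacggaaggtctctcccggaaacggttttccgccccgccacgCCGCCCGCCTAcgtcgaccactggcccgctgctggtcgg

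STIL, which brings PLK4 and SASS6 together when a centriole forms, had the weakest CHD8 peak of the group. The peak at 47313928 to 47314535 on chromosome 1 (gene at 47250139 to 47314892, minus strand) reached a fold of 9.75 and a −log10 q of 14.8, and 26.8% of occupied promoters had a lower fold. The TRRAP peak at 47314005 to 47314129 (fold 5.78, −log10 q 5.33) had its summit in intron 1, 120 bp downstream of the start, whereas the CHD8 summit lay 237 bp upstream. The printed E2F words of STIL lay between these summits. CEP135, a structural protein of the centriole cartwheel, showed a CHD8 fold of 18.6 and a −log10 q of 41.2 on chromosome 4, from 55948726 to 55949554, and 10 bp separated its summit from the start, on the upstream side. TRRAP gave a fold of 9.60 (−log10 q 13.5) from 55948750 to 55949298, and its summit was 108 bp upstream. The gene spans 55948871 to 56033361 on the plus strand.

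MCPH1 (microcephalin) acts in the DNA damage response and restrains early chromosome condensation, and so differs in role from the rest. On chromosome 8 (6406592 to 6648508, plus strand) it had the narrowest CHD8 peak of the group, 255 bp at 6406537 to 6406791, with a fold of 10.2 and a −log10 q of 16.1. The summit lay in the 5′ UTR in exon 1, 39 bp downstream of the start, and the peak also covered the start of the divergent transcript MCPH1-DT. No TRRAP promoter peak was present. Among CHD8-occupied genes with a fold no higher than that of MCPH1, 44.7% had one. MCPH1 was the longest of the 10 genes at 241917 bp. It contains the start of ANGPT2, an angiopoietin gene on the other strand, which had neither a CHD8 nor a TRRAP promoter peak.

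**Figure D2:**
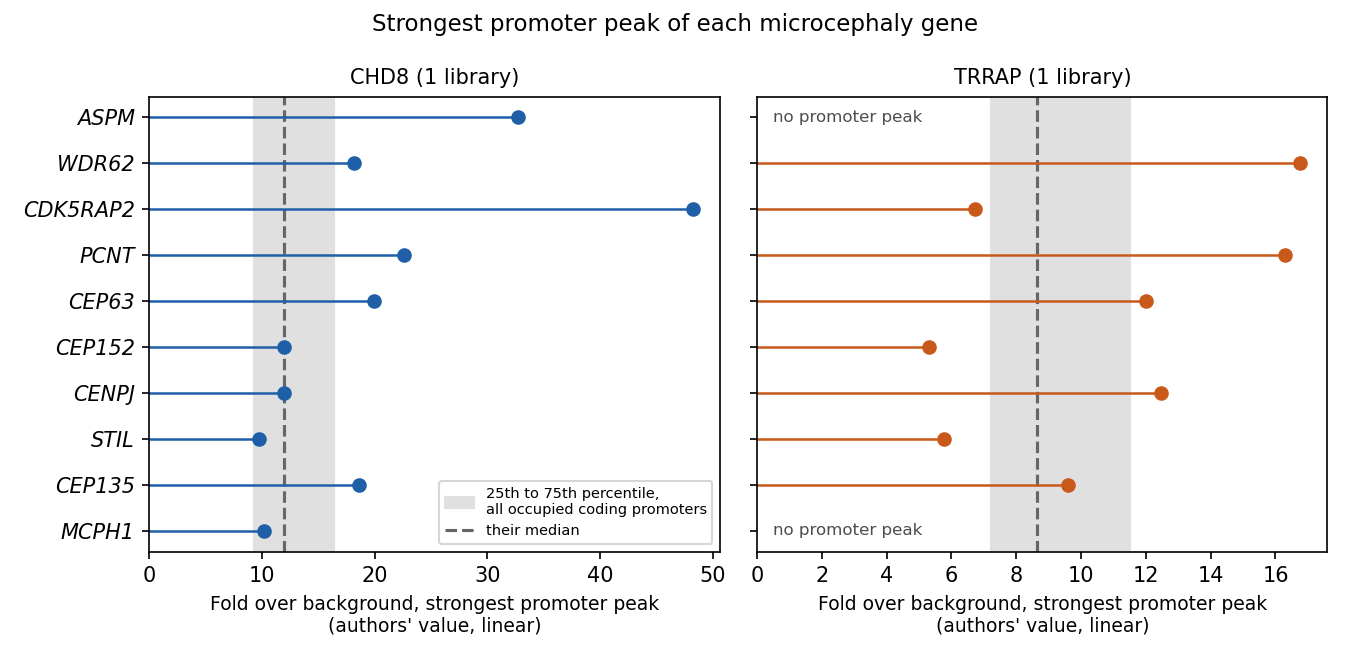
Fold over background (the authors' value, linear axis from 0) of the strongest promoter peak of each gene, CHD8 on the left and TRRAP on the right, 1 library each, with the median and the 25th to 75th percentile of all occupied coding promoters. CHD8 fold runs from 9.75 (STIL) to 48.2 (CDK5RAP2), and ASPM and MCPH1 have no TRRAP value.

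Across the group the median CHD8 promoter fold was 18.4, beside 12.0 for all 11208 occupied promoters (25th to 75th percentile 9.31 to 16.4). Of the 10 genes, 6 lay above that median, as did 49.4% of all occupied promoters. In decreasing order of CHD8 fold the genes were CDK5RAP2, ASPM, PCNT, CEP63, CEP135, WDR62, CENPJ and CEP152 (tied), MCPH1 and STIL. The steps from CEP63 to CEP135 to WDR62 (19.9, 18.6 and 18.1) and from CENPJ to MCPH1 to STIL (12.0, 10.2 and 9.75) were small, and no replicate gives a spread against which to set them. Many peaks of the CHD8 list share a fold, 571 of them that of CENPJ and CEP152.

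For TRRAP the median of the 8 occupied genes was 10.8, beside 8.65 for all 7000 occupied promoters (7.21 to 11.5), and 5 of the 8 lay above it, as did 48.6% of all. The values fell into separate ranges. WDR62, PCNT, CENPJ, CEP63 and CEP135 lay between 9.60 and 16.8. CDK5RAP2, STIL and CEP152 lay between 5.30 and 6.73, and each of their peaks was 125 bp wide. That is the narrowest width in the list, which 1000 of its 14735 peaks share. The order for TRRAP did not follow that for CHD8: the genes with the highest and the second highest CHD8 folds had a weak and an absent TRRAP peak.

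TRRAP presence was more frequent at promoters with higher CHD8 fold across the genome, from 29.7% in the lowest to 77.5% in the highest decile of fold of CHD8-occupied promoters. ASPM and CDK5RAP2 lay in the highest decile, where the median TRRAP fold of occupied genes was 9.60. CEP135, CEP63, PCNT and WDR62 lay in the next, where 74.5% of genes had TRRAP, and all 4 had it. CENPJ and CEP152 lay in the fifth decile, MCPH1 in the fourth and STIL in the third.

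**Figure D3:**
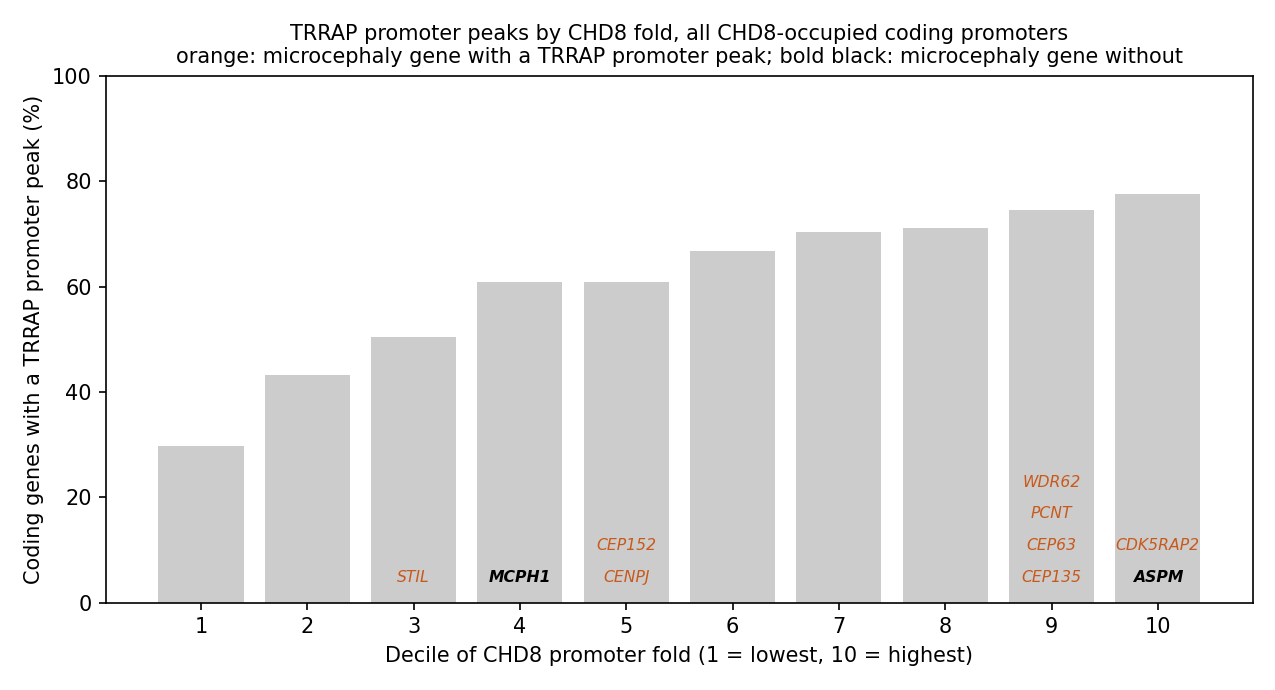
Percentage of protein-coding genes with a TRRAP promoter peak (y axis) in each decile of CHD8 promoter fold (x axis), for all 11208 CHD8-occupied promoters, with the names of the 10 genes in their decile. The share rises from 29.7% to 77.5%, and ASPM, without TRRAP, stands in the highest decile.

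The strongest summits lay near the canonical starts, but by the median further from them than over all occupied promoters. Measured to the nearest annotated start of the same gene, the distance was 1 bp (WDR62) to 251 bp (CENPJ) for CHD8. For TRRAP it was 28 bp (CEP63) to 295 bp (WDR62). Such distances are not given here for all occupied promoters, so the medians below hold for canonical starts only. All 9 TRRAP promoter peaks of the group overlapped a CHD8 peak by at least 1 bp. By gene, 97.2% of all coding genes with a TRRAP promoter peak also had a CHD8 promoter peak. With the TRRAP peaks away from promoters included, 9 of 11 overlapped CHD8, beside 90.1% of the 10981 TRRAP peaks in windows of all coding genes. The strongest CHD8 summit lay upstream of the start in 7 of 10 genes (58.3% of all occupied promoters). Its median distance from the start in either direction was 181 bp, beside 109 bp for all. The strongest TRRAP summit lay upstream in 6 of 8 (63.3% of all), and its median distance in either direction was 164.5 bp, beside 133 bp for all. With upstream counted as negative, the medians over all occupied genes of the group were -92 bp for CHD8 (-31 bp for all) and -164.5 bp for TRRAP (-47 bp for all). The CHD8 and TRRAP summits of a gene were 86 to 531 bp apart, with a median of 208 bp, beside 105 bp for all genes with both. The widest separations, at PCNT, STIL, CEP63 and WDR62, were 531, 357, 342 and 296 bp. In PCNT, CEP63 and WDR62 the strongest peaks sat over or between divergent starts. All 23 peaks of the group had single-copy summit sequence by exact words of 32 bases.

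**Figure D4:**
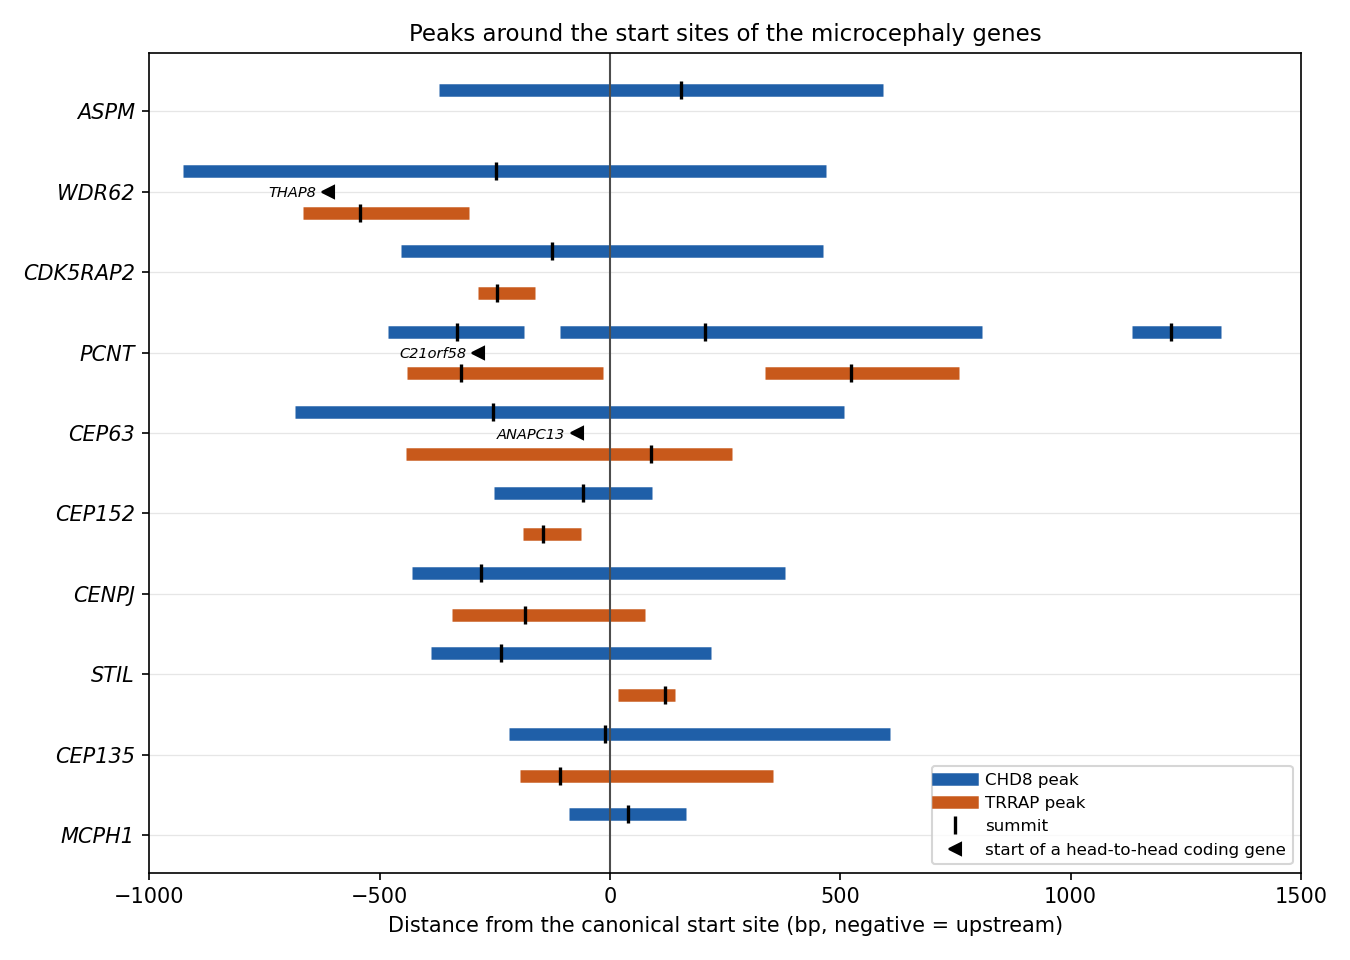
CHD8 (blue) and TRRAP (orange) peaks of the 10 genes by distance in bp from the canonical start site, with summits as ticks and starts of head-to-head coding genes as arrowheads. Every gene has a CHD8 peak across its start, and the TRRAP peak of WDR62 lies upstream of it at the THAP8 start.

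Head-to-head coding neighbours within 1 kb were present at 3 of the 10 genes (WDR62 with THAP8, CEP63 with ANAPC13, PCNT with C21orf58) and at 9.46% of all coding genes. These 3 genes and CENPJ had the 4 highest TRRAP folds of the group. Across the genome, 60.2% of genes with such a neighbour had a TRRAP promoter peak, beside 32.3% of the others, and 94.2% had CHD8, beside 51.9%, but the median TRRAP fold of occupied promoters was 8.65 in both. For a shared promoter, the peak cannot be assigned to one gene of the pair.

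Outside promoters, as counted from canonical starts, the group had 1 CHD8 and 2 TRRAP peaks. Its genes are long (40611 to 241917 bp, median 91355, against 27471 for all coding genes), so they were set beside the 6784 coding genes within the same range of lengths. A CHD8 peak was in 1 window (PCNT), below the share of 32%, and TRRAP peaks were in 2 windows, at the share of 20%. Per 100 kb of window there were 0.090 CHD8 peaks away from promoters, beside 0.56 in genes of that length, and 0.18 TRRAP peaks, beside 0.32. The TRRAP peaks were at CDK5RAP2, 4061 bp upstream of the start (chromosome 9, 120584133 to 120584258), and in intron 12 of MCPH1, which is also within ANGPT2 (chromosome 8, 6547709 to 6547833). Both had a fold of 6.73 and a −log10 q of 6.39, values that 1418 TRRAP peaks share in fold, and neither overlapped a CHD8 peak. No peak of either list was found in the windows of the other 8 genes beyond the promoter, apart from the PCNT peak in intron 1 described above.

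Gene length and CpG content moved with promoter occupancy, so the counts were also read against genes alike in both. The CpG ratio (observed over expected CpG within 500 bp of the start) was 0.677 to 0.940 in the group, with a median of 0.868. The median was 0.725 for all coding genes and 0.799 for those with CHD8 at the promoter. CEP152, MCPH1 and CDK5RAP2 lay below both. Among the 4749 coding genes within the same length range and with a CpG ratio no lower than the lowest of the group, 81.2% were occupied by CHD8 at the promoter, 56% by TRRAP and 54.6% by both, and TRRAP was at 67.3% of those with CHD8. The counts of 10, 8 and 8 of 10 are to be read beside these shares. Whether length or CpG content accounts for the counts was not tested.

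The other lists, written from general knowledge, held genes of related function. Of 22 other primary microcephaly genes, 22 had a CHD8 peak and 13 also had TRRAP. Over all coding genes, 55.9% had CHD8, and 60.7% of CHD8-occupied promoters had TRRAP. Their median CHD8 fold was 14.4. The highest CHD8 folds were at ZNF335 (63.7), a zinc finger regulator, and KNL1 (39.8), a kinetochore scaffold. TRRAP was highest at LMNB1 (21.1), which encodes lamin B1, and ZNF335 (13.4). SASS6, which forms the centriole cartwheel, was added after its values were seen. It resembled ASPM in having a CHD8 fold of 31.0 and no TRRAP promoter peak. Unlike ASPM, it is head to head with a coding gene, TRMT13.

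Of 50 other centriole, pericentriolar and spindle pole genes, 49 were occupied by CHD8 at the promoter, 30 of them with TRRAP. The shares over all coding genes were again 55.9% for CHD8 and 60.7% for TRRAP at CHD8-occupied promoters. PDE4DIP, a paralog of CDK5RAP2, was the gene without either. CHD8 was highest at CEP250 (39.4), a centrosome linker, and TUBGCP3 (27.4), a subunit of the γ-tubulin ring. TRRAP was highest at PCM1 (31.6), the scaffold of centriolar satellites, and TUBGCP5 (16.8). PLK4, the kinase that starts centriole duplication, had folds of 17.3 for CHD8 and 7.69 for TRRAP.

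Brain overgrowth genes, whose mutation enlarges the brain, provide the opposite phenotype. Of 30, 26 were occupied by CHD8 (55.9% of all coding genes), 19 of them with TRRAP (60.7% of all CHD8-occupied promoters). AKT1, NFIA, NFIX and NSD1 had neither. TSC1, a brake on growth signalling, had a CHD8 fold of 37.6, and EZH2, the Polycomb methyltransferase, had a TRRAP fold of 37.8. Their median folds were 12.4 for CHD8 and 8.65 for TRRAP. Genes that shrink the brain when lost and genes that enlarge it when mutated thus both carried CHD8 at most promoters, and the difference between the lists was not tested. In the same libraries the neural stem cell genes SOX2, NES, PAX6 and VIM had both promoter peaks, as did 34% of all coding genes. The pluripotency genes POU5F1 and NANOG had neither, as did 8627 of all 20033 coding genes. Of the neuronal genes, SYP had a weak CHD8 peak (7.54) and RBFOX3 none. The median CpG ratio was 0.722 in the neural stem cell genes, 0.717 in the 2 neuronal genes and 0.329 in the pluripotency genes, beside 0.725 for all. Whether cell identity or CpG content accounts for these peaks was not tested, and the lists are very short. Occupancy is not a measure of expression.

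**Figure D5:**
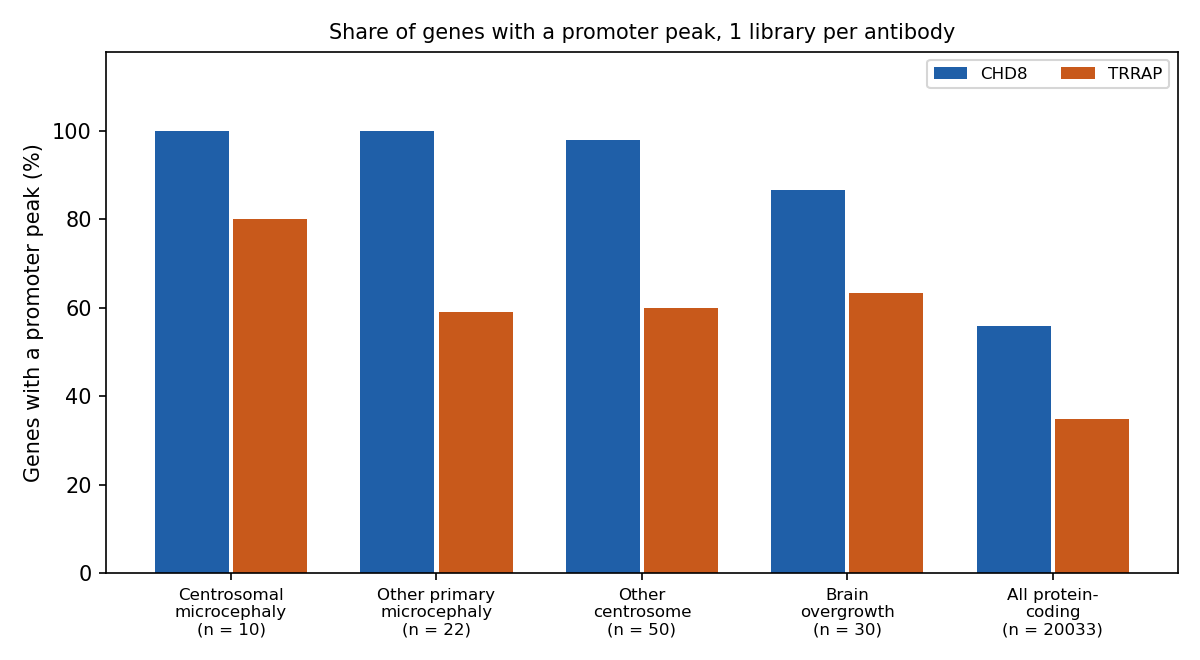
Percentage of genes with a CHD8 (blue) or TRRAP (orange) promoter peak in the 10 centrosomal microcephaly genes, 3 other lists and all 20033 protein-coding genes, with 1 library per antibody and no error bars. CHD8 is at 100% in both microcephaly lists and 86.7% in overgrowth genes, and TRRAP is at 80% in the centrosomal microcephaly genes and 59.1% in the other microcephaly genes.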

How the data were processed

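ChIP-seq peak lists for CHD8 and TRRAP were used, each from 1 library. Per the submitters' processing notes, HISAT2, MACS2 2.1.1.20160309 and GRCh38 were used. The control, the filters and the read totals are not given in the sources used here, so the depth behind each peak is unknown. Each list gives, as deposited by the authors, a fold (ratio), −log10 p and −log10 q values and a score per peak. By their names, the false discovery rate was set at 0.0001 for CHD8 and 0.001 for TRRAP. Coordinates are on GRCh38 and counted from 1, and 0 peaks ran past a chromosome end.

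Genes and start sites came from GENCODE 44, and sequences from the GRCh38 reference. The strongest promoter peak was that with the highest −log10 q, then fold, then width. A rank is by the same order within a list. Overlap meant at least 1 bp. Copies of summit sequence were counted as the median occurrence in the genome of the 32-base words of the surrounding 101 bp. Interval and word searches were checked on simulated data. Named genes were the 10 genes, genes starting under their peaks and, in each other list, the 2 with the highest fold per antibody and those without CHD8 if few. Some genes that this rule names are not reported here. PLK4 and SASS6 were added after their values were seen. The 10 genes, the lists and the words were chosen with earlier results of these data known. No test was run, because there are no replicates. Python 3.11.15, numpy 2.4.6, pandas 2.3.3, pysam 0.24.0, numba 0.67.0 and matplotlib 3.10.9 were used.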

Additional observations from a re-analysis of the deposited data

How the results depend on the processing

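The count of 10 genes with a CHD8 promoter peak was the same with windows of 500 bp or 2500 bp, with the starts of all transcripts and with CHD8 peaks at or above the median significance of the list. In that order, the CHD8 shares over all coding genes were 55.1%, 57.4%, 59.2% and 43.2%. The count of 8 genes with TRRAP, and with both, was the same with these windows, with all starts and with TRRAP peaks at a q-value of at most 0.0001. Over all coding genes, TRRAP was at 33.5% with the 500 bp window, 36.4% with the 2500 bp window and 38.3% with all starts. Restriction to TRRAP peaks at or above the median significance lowered both counts from 8 to 5 (WDR62, CENPJ, CEP135, CEP63 and PCNT remained), because CDK5RAP2, STIL and CEP152 have peaks below it. The same restriction gave a TRRAP promoter peak at 21.8% of all coding genes, and the share with both is not given here. The restriction also lowered the TRRAP peaks in the gene windows from 11 to 6. Window peaks otherwise numbered 11 or 12 for CHD8 and 10 or 11 for TRRAP with 1 kb or 10 kb upstream, by summit, and at the median significance for CHD8. The 9 TRRAP peaks overlapping CHD8 stayed 9 when the overlap had to reach 50% of the shorter peak. They were 7 by centres no more than 200 bp apart and 6 at the median significance. No paired analysis was possible because each antibody has 1 library and no result comes from a test.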
